A study of Mus musculus with 18 samples.

Results

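Ribosome footprints were compared between RAW264.7 cells exposed to 4-thiouridine (4sU) for 60, 90 or 120 min and cells exposed for 0, 20 or 40 min. The libraries were defined by their labels, as the 6 footprint libraries of experiment 1 among the 18 libraries of the series. The choice was made with earlier results of these data known. The longer group held 1 library at each of 60, 90 and 120 min in 200 µM 4sU. The shorter group held 1 library from untreated cells (0 min) and 1 library at each of 20 and 40 min in 200 µM 4sU. RAW264.7 is an established mouse macrophage-like cell line, and no genotype or stimulus differed between the groups. The other libraries were 6 inputs, fragmented cytoplasmic RNA saved from the same lysates before digestion, and 6 libraries of experiment 2, in which no labelling exceeded 40 min. All cells were washed and lysed in cycloheximide, a drug that stalls elongating ribosomes.

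A ribosome shields the stretch of mRNA it sits on from RNase, so the sequenced fragments, called footprints, count ribosomes on each mRNA. 4sU is a uridine analogue that cells build into new RNA, and the chemistry used here turns it into a base read as C, so that a T-to-C conversion marks a fragment made after labelling began. A short-lived mRNA is replaced quickly and gains converted reads early, whereas a stable mRNA stays mostly unconverted. High or prolonged 4sU exposure is known, from other cell types, to disturb ribosomal RNA synthesis and the nucleolus. The comparison asks which mRNAs held more or fewer footprints once the analogue had been present for an hour or more.

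Footprint libraries held 11771175 reads at 60 min, the fewest, to 23327760 reads at 0 min, and input libraries 6230562 to 7933796 reads. The meaning of the deposited columns, T positions and conversions in a read, was read from their headings and values. On that reading, the share of footprint reads with a conversion was 0.298% at 0 min, 0.458% at 20 min, 1.29% at 40 min, 2.43% at 60 min, 4% at 90 min and 5.54% at 120 min. The 60 min footprint library stood apart. On the second principal component, which held 25.7% of the variance, it lay at -29.9 and the other 5 between 4.7 and 8.78, and its change from 0 min followed the GC share of the coding sequence across genes (Spearman's rho = 0.55, 9655 genes) where the other libraries' did not (rho between -0.05 and 0.08). The calls over all genes, per list and per family are therefore given below with and without that library. Not repeated without it were the sequence features of called genes, the called shares of quintiles, non-overlap and the comparison of signs with input. All 12 macrophage markers exceeded 1 CPM in every footprint library, with a summed level of 11581 to 12980 CPM in the longer group and 9562 to 10134 CPM in the shorter group. Of 33 markers of other cell types, 18 were at 0 in every footprint library, and the 33 summed to 10.4 to 11.02 CPM in the longer group and 7.27 to 8.68 CPM in the shorter group.

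Levels are counts per 1000000 reads after TMM scaling (normalised CPM), and differences are log2 values, longer minus shorter labelling, with an approximate standard error (SE). The SE is the absolute log2 difference divided by the square root of the F statistic of edgeR's test. All are relative levels: an equal change of all footprints would not be seen. In these bulk samples fewer cells of a type and less RNA per cell cannot be told apart. Genes were called at an adjusted p below 0.05 in edgeR's quasi-likelihood test, with Benjamini-Hochberg adjustment over all genes tested. The labels do not say that the libraries came from separate cultures, and each time had 1 library, so a p-value here reflects only how far these 6 samples scatter, which may be technical.

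Footprints of 466 of 9956 genes rose (4.68%) and those of 796 fell (8%), 12.7% in both directions. The losses were larger than the gains. The median log2 difference was -0.72 among genes that fell and 0.42 among genes that rose, and 141 genes fell by at least 2-fold, whereas 26 rose by that much. The median of all genes was 0.05. The libraries of the 2 groups did not overlap for 1258 of the 1262 called genes, against 21.6% of all tested genes lying wholly above and 18.7% wholly below. Calls and non-overlap come from the same values, so this describes the calls and is no added support for them. Without the 60 min library, 1240 genes were called higher (12.4% of 10033 tested) and 2253 lower (22.5%), and these held 411 of the 466 and all 796. The calls were lost when another library was left out: none was made without the 0 min or the 90 min library, and none higher and 1 lower without the 20 min library. With DESeq2's size factors in place of TMM, 271 genes were called higher and 877 lower, which moved the share of higher calls to 23.6%, against 36.9% under TMM.

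**Figure D1:**
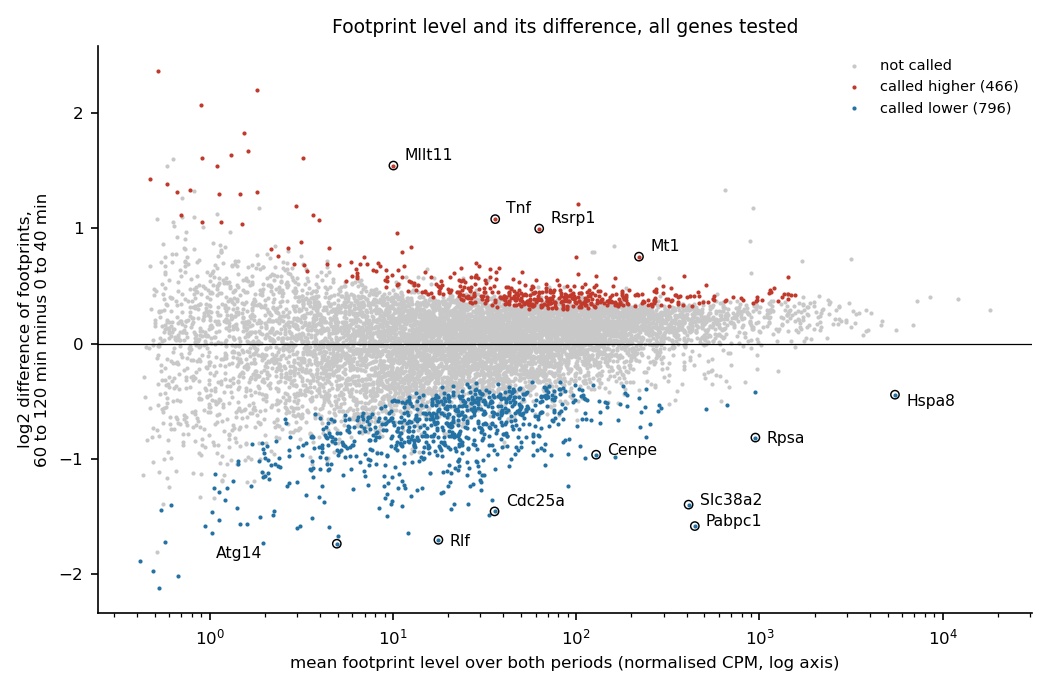
Mean footprint level over the 2 groups (normalised CPM, log axis) against the log2 difference, 60 to 120 min minus 0 to 40 min, for the 9956 genes tested (1 point each). Red points are the 466 genes called higher and blue points the 796 called lower; the blue cloud reaches further from 0, and Pabpc1, Slc38a2 and Rpsa stand out among abundant mRNAs that fell.

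The 12 largest losses and gains were ranked among called genes averaging at least 100 reads, without overlap between groups. Predicted and clone-named genes were left out of the ranks. Over all tested genes the differences ran from -2.11 to 2.36. Pabpc1 and Slc38a2 were the abundant mRNAs among the 12 largest losses. Pabpc1 (chr15:36595661-36609668, minus strand, GRCm38) encodes the main cytoplasmic poly(A)-binding protein, which coats mRNA tails. Its footprints measured 331, 202 and 135 CPM at 60, 90 and 120 min, against 674, 740 and 583 CPM at 0, 20 and 40 min, a log2 difference of -1.58 (SE 0.27, edgeR adjusted p = 0.0158). Every longer library lay below every shorter one, as the ranking required, and the 120 min library was the lowest. Slc38a2 (chr15:96687392-96699730, minus strand) encodes a sodium-coupled neutral amino acid transporter. It measured 344, 198 and 137 CPM at 60, 90 and 120 min, against 687, 618 and 480 CPM at 0, 20 and 40 min, a difference of -1.39 (SE 0.28, edgeR adjusted p = 0.0221). Beyond the non-overlap that the ranking required, each later Slc38a2 library was lower than the one before it.

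The other 10 of the 12 were less abundant. Cdc25a (chr9:109875579-109893895, plus strand), the phosphatase that activates cyclin-dependent kinases at the entry into and during S phase, measured 29.2, 16.5 and 12.2 CPM at 60, 90 and 120 min, against 50.2, 57.7 and 49.2 CPM at 0, 20 and 40 min (log2 -1.45, SE 0.25, edgeR adjusted p = 0.0180). Map3k1 (chr13:111746428-111808993, minus strand), a kinase upstream of the stress-activated JNK pathway, measured 31.7, 12.9 and 8.6 CPM in the longer libraries, against 51.9, 52.7 and 41.9 CPM in the shorter ones (log2 -1.49, SE 0.36, edgeR adjusted p = 0.0336). In both, the 60 min library lay between the later libraries and the shorter group. Rlf, a zinc finger gene, measured 12.5, 7.95 and 4.9 CPM at 60, 90 and 120 min, against 30.0, 29.3 and 21.6 CPM at 0, 20 and 40 min (log2 -1.70, SE 0.27, edgeR adjusted p = 0.0158). Atg14, a subunit of the lipid kinase complex that starts autophagosomes, had the largest difference of the 12 (log2 -1.73, SE 0.26, edgeR adjusted p = 0.0158) at 2.85, 2.67 and 1.39 CPM in the longer libraries and 8.03, 8.63 and 6.05 CPM in the shorter ones. The remaining 6 fell by log2 differences between -1.67 and -1.41. They were Zfp52, listed as a zinc finger gene, a gene listed as ZNF654, Papolg, a poly(A) polymerase, Kin, a nucleic acid-binding protein, Usp42, a deubiquitinase, and Polk, a translesion DNA polymerase.

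The genes that fell differed from all tested genes in what their mRNAs look like. Their median coding length was 1950 bases, against 1398 bases over all tested genes, their median coding GC share 47.25% against 52.5%, and their median 3′ UTR 1349 bases against 931. For the genes that rose, the medians were 930 bases, 57% and 391 bases. A pair of short words known from 3′ UTR biology were counted on the sense strand in the last 500 bases of the 3′ UTR, in genes whose 3′ UTR is at least that long. TGTANATA, the letters that Pumilio proteins recognise, stood in 143 of 624 genes that fell (22.9%) and in 13 of 190 that rose (6.84%), against 929 of 6552 tested genes (14.2%). ATTTATTTA, the core of AU-rich elements, stood in 1.92% of genes that fell and 2.63% of those that rose, against 2.34% of all. These are descriptions of letters. The GC share differed in the same direction, and its part in the TGTANATA shares was not tested.

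Sites from genes described here are shown as examples of the words in place, 5′ to 3′, with the word in capitals, from GENCODE M21 transcripts on GRCm38. Slc38a2 held 5 matches in its window, more than the other genes whose sites were listed, and 2 of them are printed. Sites were not listed for genes named through a list alone. Rsrp1 is a gene that rose and also has a match, and Tnf carries the AU-rich word.
Slc38a2, site 2, chr15:96687845-96687874, minus strand: ccatatgtattTGTAAATAgattgtatata
Slc38a2, site 5, chr15:96687518-96687547, minus strand: gactccttgtaTGTATATAgtgtaaatgtc
Atg14, chr14:47541319-47541348, minus strand: gatccacctgtTGTAAATAgtcttaaatac
Map3k1, chr13:111746767-111746796, minus strand: ggtactcgaatTGTAAATAacgtctactgc
Usp42, chr5:143710360-143710389, minus strand: acttgccccacTGTATATAtacggcatgta
Dusp6, chr10:99267108-99267137, plus strand: tgccttaccttTGTAAATAtttggcttaca
Epc2, chr2:49551500-49551529, plus strand: gtcctgggaaaTGTAAATAtttttaatgaa
Rsrp1, chr4:134927244-134927273, plus strand: ggtgggaatctTGTATATAtctgtaagtat
Tnf, chr17:35199669-35199698, minus strand: atttatttattATTTATTTAtttgcttatg

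Among the 12 largest gains were mRNAs of inflammation, and Tnf stood out. Tnf (chr17:35199381-35202007, minus strand) encodes the inflammatory cytokine tumour necrosis factor. It measured 42.0, 48.0 and 57.0 CPM at 60, 90 and 120 min, against 15.2, 21.03 and 33.6 CPM at 0, 20 and 40 min, a log2 difference of 1.08 (SE 0.24, edgeR adjusted p = 0.0282). Its level was lowest in untreated cells and higher at each later time, so part of the difference was already present at 20 and 40 min. Nfkbid, an atypical inhibitor of NF-κB, measured 13.5, 12.9 and 15.9 CPM in the longer libraries, against 8.63, 6.63 and 9.18 CPM in the shorter ones (log2 0.79, SE 0.16, edgeR adjusted p = 0.0221).

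Mllt11 had the largest gain of the 12, at 9.61, 13.96 and 21.25 CPM at 60, 90 and 120 min, against 4.74, 4.63 and 6.14 CPM at 0, 20 and 40 min (log2 1.54, SE 0.26, edgeR adjusted p = 0.0169). Rsrp1, an arginine- and serine-rich protein, measured 61.8, 85.9 and 103 CPM in the longer libraries, against 39.2, 40.8 and 46.0 CPM in the shorter ones (log2 1.00, SE 0.17, edgeR adjusted p = 0.0158). In both the 120 min library was the highest. Mt1, a metal-binding metallothionein, measured 343, 234 and 252 CPM at 60, 90 and 120 min, against 149, 169 and 173 CPM at 0, 20 and 40 min (log2 0.75, SE 0.14, edgeR adjusted p = 0.0218). There the 60 min library was the highest, and the difference without it was 0.49 (edgeR adjusted p = 0.00156). Vkorc1 (log2 0.96), the vitamin K epoxide reductase, Pabpn1 (0.70), the nuclear poly(A)-binding protein, Nlrc3 (0.75), Lpp (0.70), Gng10 (0.69) and Fahd1 (0.69) also rose. Hist1h3h (0.84) completes the 12. Copies of histone H3 share sequence, so the Hist1h3h count is uncertain. Hist2h2be averaged 54.5 reads, too few for the 12, and rose by more than Mllt11 (log2 1.61, edgeR adjusted p = 0.0158). The 60 min library was also the highest for Vkorc1, Pabpn1, Nlrc3, Gng10 and Hist1h3h. Without it their differences were 0.77, 0.47, 0.57, 0.51 and 0.59, and each was still called. Mllt11, Vkorc1, Pabpn1 and Gng10 overlap another gene in the annotation.

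**Figure D2:**
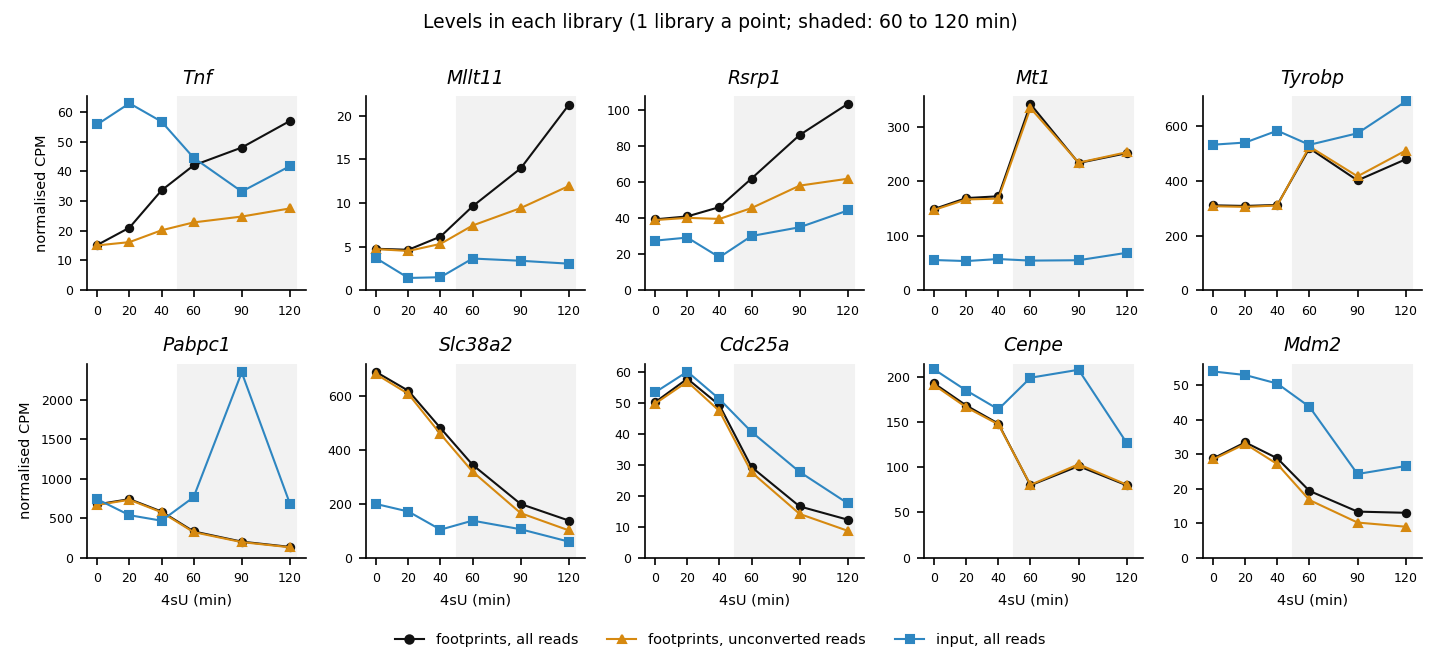
Normalised CPM (vertical axes, each from 0) against minutes of 4sU in each library, for 10 genes, with footprints of all reads in black, unconverted footprint reads in orange and input in blue; each point is 1 library and the shaded part marks 60 to 120 min. Tnf footprints climb while its input does not, Pabpc1 footprints fall to 135 CPM at 120 min while its input is high in the 90 min library alone, and the black and orange lines part where reads become converted.

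The lists of functionally related genes were chosen with earlier results of these data known, so their counts are descriptions and not independent evidence. They are to be read against all genes tested, of which 4.68% rose and 8% fell, and 12.4% rose and 22.5% fell without the 60 min library. Over all genes, 271 rose and 877 fell of 9956 with DESeq2's size factors. With offsets for GC share, 358 rose and 779 fell of 9655. Of 75 nuclear-encoded subunits of oxidative phosphorylation, 18 rose and none fell, and the median was 0.26, against 0.05 over all genes; 0 of 75 had a negative difference. The counts were 52 and none without the 60 min library, and 11 and none with DESeq2's size factors. Ndufa7, a complex I subunit, measured 90.3, 90.6 and 103 CPM in the longer libraries, against 62.3, 65.2 and 71.9 CPM in the shorter ones (log2 0.51, edgeR adjusted p = 0.0218). Cox5b and Cox6a1, of complex IV, rose by 0.49 and 0.42. The macrophage and lysosome list gave 10 higher and none lower of 44 (median 0.30), 25 higher and 2 lower without the 60 min library, and 5 higher and none lower with size factors. Tyrobp, an adaptor of activating immune receptors, measured 520, 402 and 479 CPM in the longer libraries, against 311, 309 and 312 CPM in the shorter ones (log2 0.59, edgeR adjusted p = 0.0216). The proteasome list gave 3 higher and none lower of 34 (median 0.23), a number that was 19 without the 60 min library and 8 with offsets for GC share, a fit added after seeing the data. Glycolysis gave 4 higher and 1 lower of 23 (median 0.23), 6 and 3 without the 60 min library, and only 1 higher under size factors or GC offsets.

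Of 79 ribosomal protein mRNAs tested, 73 had a positive difference, 16 rose and 2 fell, and the median was 0.31. Leaving out the 60 min library gave 69 higher and 6 lower, and size factors gave 10 and 2. Rpl24 of the large subunit measured 143, 149 and 168 CPM in the longer libraries, against 90.8, 117 and 97.5 CPM in the shorter ones (log2 0.59, edgeR adjusted p = 0.0221). Rpsa of the small subunit went the other way, at 809, 662 and 597 CPM, against 1348, 1331 and 957 CPM (log2 -0.81, edgeR adjusted p = 0.0221), as did Rpl12 (log2 -0.53, edgeR adjusted p = 0.0231). Rpsa has 9 and Rpl12 has 2 named pseudogenes in the annotation, which can share reads with them, so these counts are uncertain. Of 21 other mRNAs with a 5′ terminal oligopyrimidine tract, the sequence by which growth signals set their translation, 1 rose (Eif3f, log2 0.44) and 1 fell (Pabpc1), and the median was 0.24. Without the 60 min library 15 of them rose and Pabpc1 alone fell. Of 48 ribosome biogenesis genes 3 rose and 3 fell (median 0.05), and 9 and 8 without the 60 min library, so neither share stood far from that of all genes. Fbl, the methyltransferase of nucleolar snoRNPs, and Nop10, of the pseudouridylation complex, rose by 0.36 and 0.42. Gnl3, the nucleolar GTPase nucleostemin, and Wdr43 each fell by 0.59 on the log2 scale.

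The 13 mitochondrially encoded mRNAs, which mitochondrial ribosomes translate, had a median of 0.73 and no negative difference, and 1 was called, a call that was lost with size factors. mt-Nd4l measured 98.7, 144 and 187 CPM in the longer libraries, against 43.9, 40.2 and 103 CPM in the shorter ones (log2 1.21, edgeR adjusted p = 0.0462). The 40 min library was higher than the 60 min library, so the groups overlapped, and mt-Nd4l overlaps mt-Nd4 in the annotation. Summed over the 13, footprints measured 7495, 13061 and 16822 CPM at 60, 90 and 120 min, against 6700, 5125 and 10557 CPM at 0, 20 and 40 min. Without the 60 min library 10 of the 13 were called higher, with GC offsets 7, and with size factors none.

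Of 27 mitosis genes, 12 fell and none rose (median -0.32). Leaving out the 60 min library gave 18 lower and none higher, and GC offsets gave 9 lower and 1 higher. Cenpe, a kinetochore kinesin, measured 80.0, 101 and 80.0 CPM in the longer libraries, against 193, 168 and 148 CPM in the shorter ones (log2 -0.96, SE 0.13, edgeR adjusted p = 0.0158). Prc1, which bundles the central spindle, measured 123, 123 and 84.1 CPM, against 255, 221 and 177 CPM (log2 -0.98, edgeR adjusted p = 0.0182). Cenpf and Kif23 fell by 0.69 and 0.56 on the log2 scale. Of 33 genes of DNA replication and S phase 5 rose, among them Gins2 (0.38), Ung (0.37) and Rfc2 (0.33), and only Ccne2, a cyclin of the G1 to S transition, was called lower (-0.64). In the fit without the 60 min library 10 of them rose and 6 fell. Replication-dependent histones gave 2 higher and none lower of 55 (median -0.05), and 2 higher and 9 lower of 56 without the 60 min library.

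Of 43 immediate-early and early response genes, 9 fell and 1 rose (median -0.24), and 15 had a positive difference. When the 60 min library was left out 21 of 44 fell and 1 rose, and with GC offsets 16 of 43 fell and none rose. Fos measured 17.8, 14.4 and 13.4 CPM in the longer libraries, against 19.3, 30.0 and 24.9 CPM in the shorter ones (log2 -0.70, edgeR adjusted p = 0.0357), and Atf3 and Ier2 fell by 1.05 and 0.69. Ier3 was the exception, at 12.8, 12.0 and 14.2 CPM in the longer libraries, against 7.03, 8.39 and 9.74 CPM in the shorter ones (log2 0.63, edgeR adjusted p = 0.0338). Of 24 p53 targets, 3 fell and 1 rose (median -0.28), and 9 fell and 1 rose without the 60 min library. Mdm2, the ubiquitin ligase that degrades p53, measured 19.4, 13.4 and 13.02 CPM, against 28.8, 33.5 and 28.8 CPM (log2 -1.003, edgeR adjusted p = 0.0158), and Ccng2 and Polk fell with it, while Bax, a pore-forming death effector, rose by 0.43. Among 34 inflammatory genes 4 rose and 3 fell (median 0.11), and without the 60 min library 6 rose and 11 fell (median -0.01). Beside the gains of Tnf and Nfkbid stood losses of Birc3 (-1.10), an inhibitor of apoptosis, and Rel (-0.88), an NF-κB subunit. Of 38 RNA processing factors 3 rose, Srsf2 among them (0.57), and 3 fell, Clk1 (-1.21), Ccnl1 (-1.19) and Clk4 (-0.85), kinases and a cyclin that act on splicing factors. Of the 38, 12 rose and 7 fell without the 60 min library.

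The other lists held few calls on all 6 libraries and more without the 60 min library. The ATF4 list gave 1 higher, Aldh18a1 of proline synthesis (0.36), and 3 lower of 36 (median 0.17), among them Chac1 (-1.04), a glutathione-degrading enzyme, and Slc38a2, and 6 higher and 7 lower without the 60 min library. Chac1 averaged only 28.7 reads per footprint library. Interferon response genes gave 1 lower of 32 (Ifit2, -0.61) and none higher, and 8 lower and 1 higher without the 60 min library. Chaperones of the endoplasmic reticulum gave 2 higher of 23, Sdf2l1 (0.44) and Edem1 (0.32), and none lower, and 8 higher and 5 lower without the 60 min library. Of 13 heat-shock proteins Hspa8 and Dnajb1 fell by 0.44 and 0.46, and none rose, and 2 fell and 3 rose without the 60 min library. Hspa8 was abundant, at 4378, 4847 and 4744 CPM in the longer libraries, against 6373, 6650 and 5961 CPM in the shorter ones (edgeR adjusted p = 0.0404). Genes of pyrimidine uptake, salvage and synthesis gave 2 higher of 25, Nme2 (0.43) and the uridine kinase Uckl1 (0.43), and none lower, and 2 higher and 1 lower without the 60 min library. Of 23 genes with known upstream open reading frames 2 rose, Sat1 (0.62) and Slc35a4 (0.43), and 3 fell, among them Ifrd1 (-1.05) and Azin1 (-0.71), and 4 rose and 7 fell without the 60 min library. No noncoding RNA of the list was tested.

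**Figure D3:**
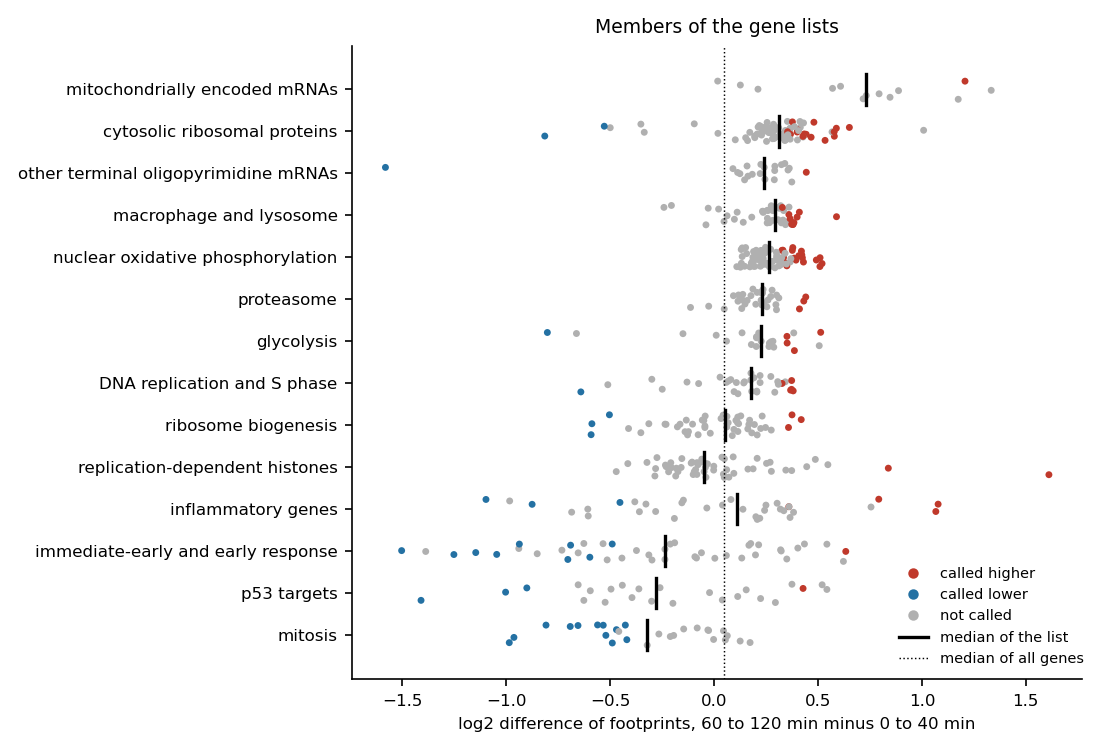
Log2 difference of footprints, 60 to 120 min minus 0 to 40 min (horizontal axis), for every tested member of 14 gene lists (1 point each, spread vertically at random within its list). Red marks genes called higher, blue genes called lower and grey genes not called; the black bar is the list's median and the dotted line the median of all genes, 0.05. No subunit of nuclear oxidative phosphorylation lies below 0, and most mitosis genes do.

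Gene families picked out after the values were seen are given as counts, beside 4.68% higher and 8% lower over all genes (12.4% and 22.5% without the 60 min library). Of 253 tested genes named Zfp or ZNF with a number, which are zinc finger proteins, 70 fell and none rose (median -0.58), and without the 60 min library 132 fell and 7 rose. Summed over the family, footprints measured 2289, 2400 and 2322 CPM at 60, 90 and 120 min, against 2950, 2934 and 2761 CPM at 0, 20 and 40 min. In Zbtb genes 10 of 34 fell, in centrosomal Cep genes 12 of 31, in Trim genes 8 of 30, in Kif genes 7 of 29 and in Fbxo genes 6 of 27, with none higher in any of these. With the 60 min library left out, 16 Zbtb, 22 Cep, 15 Trim, 19 Kif and 12 Fbxo genes fell, and 1 Zbtb and 1 Trim gene rose. In the other direction, 4 of 6 peroxiredoxins, 4 of 18 vacuolar ATPase subunits and 6 of 76 mitochondrial ribosomal proteins rose, with none lower. With size factors these counts were 1, 3 and 3, beside 271 higher of 9956 over all genes. They were 6, 8 and 18 without the 60 min library, and 3 mitochondrial ribosomal proteins fell.

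Across genes the difference followed how quickly an mRNA took up label, with exceptions. Genes were split into quintiles by the share of their input reads with a conversion at 60 to 120 min, a measure from other libraries than the footprints. In the quintile with the least label (median 2.09% converted) the median footprint difference was 0.21, with 11.6% of genes called higher and 0.271% lower. In the quintile with the most label (median 21.45%) it was -0.34, with 0.974% called higher and 26.2% lower. Tnf, Mllt11 and Rsrp1 rose although 65.3%, 50% (of 18 reads) and 50.8% of their input reads were converted at 120 min. The 13 mitochondrially encoded mRNAs had a median converted share of 36.8% and no negative difference. Genes that fell had a median converted share of 16.8% and genes that rose 2.9%, against 5.61% for all tested genes. Across 9237 genes Spearman's rho between the share and the footprint difference was -0.58, and -0.64 without the 60 min library; genes are not independent replicates, and input and footprints came from the same lysates. By library, the median of the most labelled quintile against the 0 min library was -0.005 at 20 min, -0.09 at 40 min, -0.22 at 60 min, -0.37 at 90 min and -0.52 at 120 min. In the least labelled quintile the same medians were 0.004, 0.04, 0.12, 0.21 and 0.33.

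Coding GC share showed another course. From the lowest to the highest quintile the median difference from 0 min ran between -0.29 and 0.29 in the 60 min library, but between -0.08 and 0.10 at 120 min, where it did not rise steadily. Across genes rho between GC share and the footprint difference was 0.30, and 0.09 without the 60 min library. Coding length had a rho of -0.30, and -0.34 without that library. The number of T positions per read, which sets how often a fragment can be converted and so mismatch the genome, had a rho of -0.03. For single libraries against 0 min its rho was -0.18, -0.16, -0.10, -0.07 and -0.07 at 20, 40, 60, 90 and 120 min. In reads with at most 5 T positions, the median of the most labelled quintile was -0.35 and that of the least labelled 0.15.

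**Figure D4:**
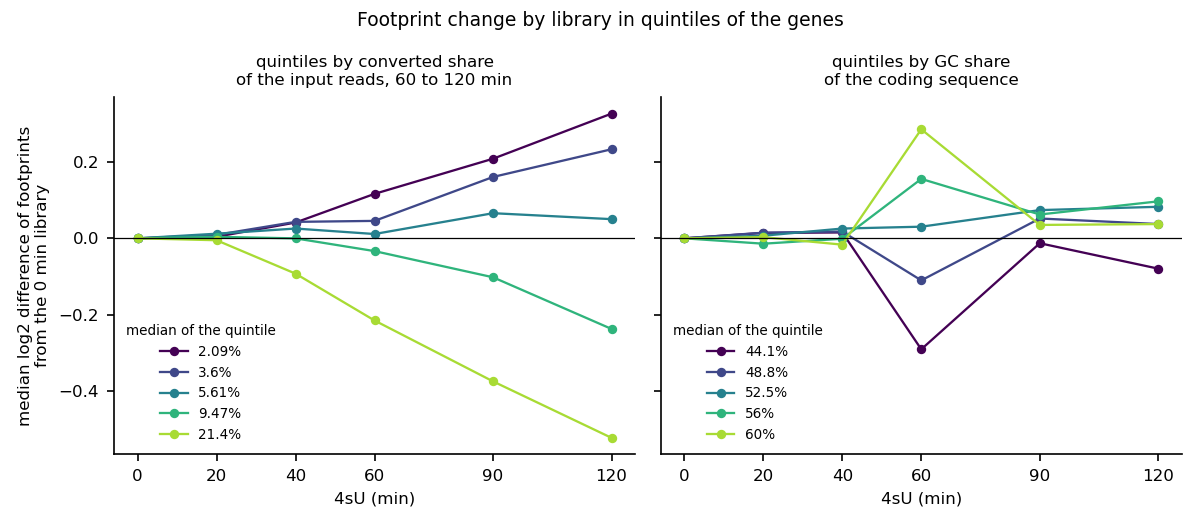
Median log2 difference of footprints from the 0 min library (vertical axis) against minutes of 4sU, in quintiles of genes by converted share of their input reads (left) and by coding GC share (right); each line is 1 quintile, named by its median. The left lines fan out with time to 0.33 and -0.52 at 120 min, and the right lines part most at 60 min.

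Counting unconverted reads alone asks about footprints that carry no trace of label. Of 9917 genes tested, 775 rose (7.81%) and 1088 fell (11%), 18.8% in both directions; without the 60 min library 1740 rose (17.4%) and 2734 fell (27.3%). Under DESeq2's size factors 440 rose and 1171 fell, 27.3% of the calls being higher, against 41.6% under TMM. Of the genes called higher on all reads, 444 of 466 were also called on unconverted reads (95.3% of the first list and 57.3% of the second), and of those called lower 752 of 796 (94.5% and 69.1%). The 2 sets of differences come from nested reads, so their likeness (rho = 0.97 over 9914 genes) is no independent support. A gene that makes new mRNA loses unconverted reads as its reads become converted, so a fall here includes replacement of old mRNA. An unconverted read is not always from old mRNA, since new mRNA can also give reads without a conversion. Footprint reads held a mean of 6.56 T positions at 120 min, and the share of new reads that stayed unconverted was not measured.

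Some mRNAs differed between the 2 counts. Fos unconverted footprints measured 9.24, 8.96 and 7.85 CPM in the longer libraries, against 19.04, 25.7 and 16.7 CPM in the shorter ones (log2 -1.24, edgeR adjusted p = 0.0127), more than its loss on all reads. Of 43 immediate-early genes 20 fell on unconverted reads and none rose, and of 34 inflammatory genes 8 fell and 1 rose; without the 60 min library 32 of 44 immediate-early genes fell, and 15 inflammatory genes fell and 3 rose. The inflammatory gene that rose with all 6 libraries in the fit was Tnf, at 22.8, 24.8 and 27.5 CPM, against 15.1, 16.2 and 20.1 CPM (log2 0.55, edgeR adjusted p = 0.0355), although 55.7% of its footprint reads were converted at 120 min. Unconverted Tnf reads can come from old or new mRNA, which cannot be told apart here. Nfkbid and Ier3, called higher on all reads, had unconverted differences of 0.05 and 0.02 that did not pass (edgeR adjusted p = 0.850 and 0.931). For Pabpc1, Cenpe and Tyrobp the 2 counts gave close differences, at -1.61, -0.93 and 0.66 on unconverted reads and -1.58, -0.96 and 0.59 on all reads. At 120 min 11.5% of Pabpc1, 7.42% of Cenpe and 2.12% of Tyrobp footprint reads were converted, against 5.54% of all footprint reads.

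Genes with the largest unconverted differences that the count of all reads had not placed in its first 12 were Itgax, an integrin of macrophages and dendritic cells, with no converted footprint read in the longer libraries (log2 0.76, edgeR adjusted p = 0.0194), Ssh3, Ecm1, Rpl13a, which has a named pseudogene, Mrpl33 and Csad, all between 0.70 and 0.74. The losses were Sgol1, the protector of centromeric cohesion (-1.83), Clk1 (-1.78), Dusp6, a phosphatase of ERK (-1.77), Hyls1 (-1.76), and Epc1 and Epc2, scaffolds of a histone acetyltransferase complex (-1.74 and -1.72). Dusp6 unconverted footprints measured 7.99, 3.59 and 1.78 CPM at 60, 90 and 120 min, against 14.5, 17.3 and 12.9 CPM at 0, 20 and 40 min (edgeR adjusted p = 0.0241).

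Input RNA from the same lysates was set beside the footprints. No gene was called in edgeR's test of 9614 genes (0% in either direction), where 1956 had an unadjusted p below 0.05; DESeq2 called 1.06% higher and 2.76% lower. Without the 60 min input library edgeR called 78 higher and 442 lower. Input and footprint differences had the same sign in 408 of 450 genes whose footprints rose (90.7%) and in 706 of 792 whose footprints fell (89.1%), with median input differences of 0.16 and -0.39. Of all 9544 genes compared, 5313 had a positive input difference and 4231 a negative one. Across 9544 genes the 2 differences had Spearman's rho of 0.55 and Pearson's r of 0.58; they share lysates. Cdc25a input measured 40.6, 27.6 and 17.5 CPM at 60, 90 and 120 min, against 53.4, 60.0 and 51.1 CPM at 0, 20 and 40 min (log2 -0.93, edgeR adjusted p = 0.104), in the direction of its footprints. Rlf (-1.10) and Dusp6 (-1.42) likewise had lower input in every longer library, without passing the test.

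Whether footprints and input changed by different amounts was tested with both materials in 1 model and the lysate as a block. No gene of 9974 was called (0% in either direction; smallest edgeR adjusted p 0.226), and 1233 had an unadjusted p below 0.05; without the block none was called either. DESeq2 called 6 higher (0.0602%) and 36 lower (0.361%). Among genes with at least 100 reads in each material, the smallest p-values belonged to Tnf, Pabpc1, Cenpe, Eloa, Prmt6 and E2f8, none of which passed. Tnf input measured 44.6, 33.2 and 41.7 CPM at 60, 90 and 120 min, against 55.8, 62.9 and 56.8 CPM at 0, 20 and 40 min, lower in every longer library while its footprints were higher (difference of the differences 1.72, SE 0.27, edgeR adjusted p = 0.226).

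Pabpc1 input measured 764, 2343 and 684 CPM at 60, 90 and 120 min, against 738, 537 and 467 CPM at 0, 20 and 40 min. The 90 min input library stood far above the rest, and the input difference of 1.12 was 0.32 without it. The change of Pabpc1 footprints relative to input was -2.55 (SE 0.44, edgeR adjusted p = 0.226) and -1.96 without the 90 min lysate. Cenpe input measured 199, 208 and 127 CPM, against 208, 185 and 164 CPM, and overlapped between the groups, with a relative change of -0.85. Eloa, a subunit of the elongin complex of transcription elongation, had input between 115 and 126 CPM in the longer libraries and between 124.8 and 126.8 CPM in the shorter ones, while its footprints were 25.4 to 31.5 CPM, against 47.0 to 55.9 CPM (relative change -0.71). Prmt6, an arginine methyltransferase, and E2f8, a repressor of the cell cycle, had relative changes of 0.86 and -0.84.

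**Figure D5:**
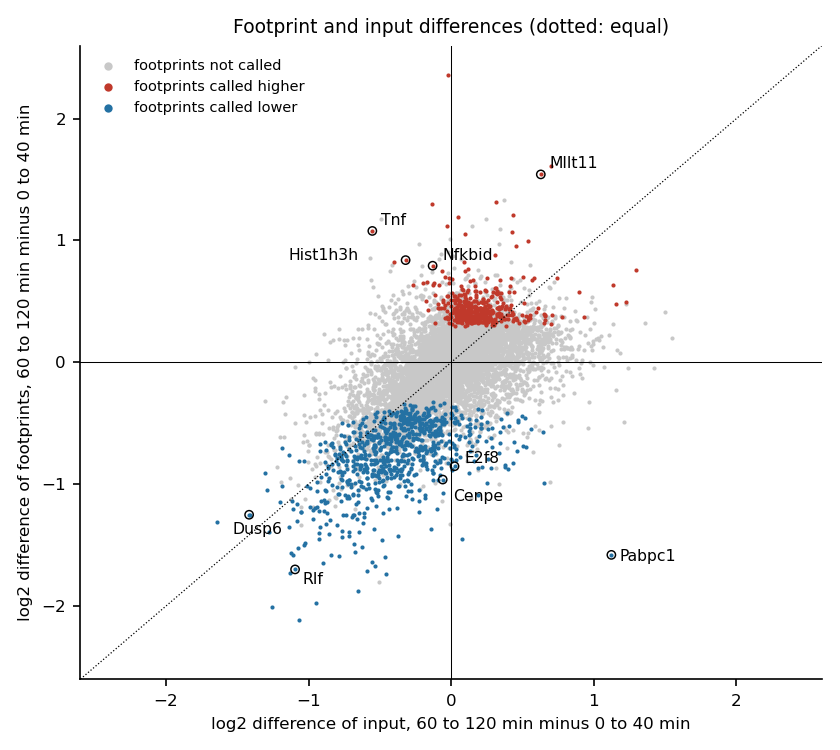
Log2 difference of input (horizontal) against log2 difference of footprints (vertical), each 60 to 120 min minus 0 to 40 min, for 9544 genes (1 point each; 1 gene lies beyond the axes). Red and blue mark genes whose footprints were called higher and lower, and the dotted line is equal change; most called genes lie on the same side of 0 in both, while Tnf (input -0.55, footprints 1.08) and Pabpc1 (1.12 and -1.58) lie on opposite sides.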

How the data were processed

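The authors deposited raw read counts in columns headed by pairs of numbers. These were read, from headings and values, as the T positions and the T-to-C conversions (up to 3) of a read: no read had more conversions than T positions, and the converted share was higher at each longer 4sU time. No source used here defines them. Bowtie 0.12.8 and the mm10 build are named in the submitters' processing notes; the sources used here name no counter, annotation or mismatch limit. Counts were summed over all columns, or over columns without a conversion. Genes passing edgeR's filterByExpr were scaled by TMM and tested with edgeR 4.0.16's quasi-likelihood test, two-sided, with Benjamini-Hochberg adjustment over all genes tested (R 4.3.3; DESeq2 1.42.0 as an alternative). The comparison relative to input had material, lysate and their period term; input and footprints of a lysate are paired by the labels' protocol. Within a lysate, deviations from the mean of each material over all 6 lysates had correlations of 0.01 to 0.69. These deviations still hold the difference between longer and shorter labelling. For 3 of the 6 lysates the own partner was the closest. The steps were tested on simulated data.

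The text names, among called genes averaging 100 reads or more and not overlapping between groups, the 12 highest and 12 lowest differences on all reads and the next 6 each on unconverted reads. Relative to input it names the 6 smallest p-values among genes averaging at least 100 reads in each material, none of them called in that test. Up to 4 genes of a list, with the smallest adjusted p on all reads, were named without a limit on reads, calls or overlap. Predicted, RIKEN and clone-named genes and pseudogenes were counted and not named. Libraries, lists and tests were chosen with earlier results of these data known. Of 13003 listed genes, 12391 matched GENCODE M21. Experiment 2 and the spike-in were not used here, and 1 list is not reported here. Libraries ranged over 11771175 to 23327760 footprint reads. Alternatives covered scaling, filter, tool, grouping of times, genes in the library size, T positions, depth, GC offsets and each library left out.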

Additional observations from a re-analysis of the deposited data

How the results depend on the processing

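The number of called genes moved strongly with the libraries used. Leaving out each footprint library in turn gave 0 to 1240 higher and 0 to 2253 lower on all reads, and 0 to 1740 higher and 0 to 2734 lower on unconverted reads. Without the 60 min library the counts were the highest, and without the 0 min or the 90 min library they were 0. On all reads 0 higher and 1 lower were called without the 20 min library, 33 and 324 without the 40 min library and 31 and 248 without the 120 min library; on unconverted reads the pairs were 3 and 96, 48 and 459, and 238 and 638. For input the range was 0 to 78 higher and 0 to 442 lower, and relative to input 0 to 1 higher and 0 to 1 lower. On all reads, higher calls numbered 271 with DESeq2's size factors, 174 with no low-count filter, 1075 with hours of 4sU as a number, 1269 with 90 and 120 min against 0 and 20 min, 217 without mitochondrial, histone and ribosomal protein genes, 46 with reads of at most 5 T positions and 132 with libraries thinned to the smallest. Lower calls numbered 1196 with DESeq2's Wald test, 1464 with hours, 2349 with the outer times and 355 with at most 5 T positions. On unconverted reads, higher calls numbered 440 with size factors, 1930 with hours, 1562 with the outer times and 82 with at most 5 T positions, and lower calls 2105, 2659 and 514 with the last 3. Input gave 39 higher and 192 lower with no low-count filter, and 102 and 265.0 with DESeq2; relative to input the counts were 1 and 1, and 6 and 36. Offsets for GC share, added after seeing the data, gave 358 higher and 779 lower on all reads, holding 212 of the 466 and 564 of the 796.

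Of 3743 alternatives over the 256 values of the 122 named genes, 2531 kept direction and side of the threshold. The 2 that turned were unconverted Hist1h3d (0.27) and Psmb2 (-0.0215), both with reads of at most 5 T positions. The cause was not tested. Without the replicate block of the lysate, the fit relative to input called 0 higher and 0 lower, as with it; the pairing comes from the protocol.

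Each time had 1 library, so time within a group adds to the spread. Levels are relative, and absolute footprint numbers were not measured. The shallowest library, at 60 min, was also the one that followed GC share, and depth and composition cannot be told apart there.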
